A study of Mus musculus with 9 samples.

Results

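Among the 46958 genes counted in mouse spleen plasma cells, 37 were switched between a genotype in which the transcript was hardly counted and another in which it was plainly present. A gene was taken as absent in a genotype when it had 5 raw counts or fewer in all 3 of its libraries, and as high in a genotype when it had 50 or more in all 3. Immunoglobulin genes and the H2-, Trim, Hist, Ftl, Rpl and Rps families and 3 further symbols were left out by name, which removed 179 of the 216 genes that met the count rule, 173 of them immunoglobulin segments. The measured counts themselves chose the genes, so the values below are descriptions and no difference in a listed gene was tested. In 33 of the 37 genes absent did not mean 0 counts throughout. Only Fndc5, Gm42543 and Eps8l1 in kFRA and BC018473 in DH-LMP2A had 0 counts in all 3 libraries of a genotype, which at this depth allows up to 3 counts in each library.

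RNA was sequenced from plasma cells pulled from the spleen with beads against CD138 (syndecan-1), from mice aged 3 months and kept without immunization. Every animal had the mixed background C57/BL6x129/SVxBALB/c, and each library held the cells of a single mouse, with a stated purity above 80%. The 3 genotypes were wild type (WT), DH-LMP2A and kFRA, with 3 mice each; the label of kFRA adds LCDD, for light chain deposition disease, in which a monoclonal light chain deposits in tissue. The labels describe the alleles no further, so the promoter, the locus and the founder line behind DH-LMP2A and kFRA are not given in the sources used here.

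Plasma cells are the antibody-secreting end stage of the B lineage. As they form, Blimp-1 (Prdm1) shuts down much of the B cell programme, and most of the cell's RNA comes to encode immunoglobulin, so other genes are read from a small remainder. A processed pseudogene, a kind of gene met often below, is a copy of a spliced messenger RNA that was inserted back into the genome, and its reads can resemble those of its parent gene.

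Total counts ranged from 15449026 to 21558128 per library and were lowest in kFRA, so that 5 counts stood for 0.212 to 0.342 CPM (counts scaled to a library of 1000000, with scaling factors from TMM, the trimmed mean of M-values) and 50 counts for 2.12 to 3.42 CPM. All 8 plasma cell markers examined, including Sdc1, Xbp1 and Jchain, were counted in every library. Their summed level was 18890 to 24141 CPM in WT, 34147 to 47160 CPM in DH-LMP2A and 20401 to 32064 CPM in kFRA. Jchain made up most of this sum, with genotype means of 17825, 30965 and 21118 CPM in the same order. Against WT, 3 of the 8 markers were higher in DH-LMP2A and 2 in kFRA past adjusted p of 0.05 by edgeR. Tnfrsf17 was lower in both, with means of 49.3, 22 and 15.3 CPM in that order (adjusted p = 0.0159 for DH-LMP2A and 0.00253 for kFRA). The library kFRA replicate 2 stood apart in the tests: without it, the genes that passed the test over the whole table numbered 3299 in place of 713 for kFRA against DH-LMP2A, and 5632 in place of 2523 in the contrast with WT. The count of genes that met the rule rose too, to 49, but leaving out a library can only loosen the rule. Without any other single library it was 39 to 47. In bulk RNA, fewer cells of a type and less RNA per cell cannot be told apart.

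The most frequent pattern was presence in WT and absence in kFRA. Of 10025 genes high in WT, 15 were absent in kFRA (0.15%) and 7 in DH-LMP2A (0.0698%), with 4 genes in both counts. Of 10178 genes high in DH-LMP2A, 8 were absent in WT (0.0786%) and 5 in kFRA (0.0491%). Of 9532 genes high in kFRA, 5 were absent in WT (0.0525%) and 4 in DH-LMP2A (0.042%). Over all patterns the 37 genes were 0.349% of the 10614 genes high in at least 1 genotype. Split by genotype, 20 genes were absent in kFRA, 12 in WT and 10 in DH-LMP2A. By kind of gene, 16 of the 18 genes high in WT and 11 of the 13 high in DH-LMP2A were protein coding, whereas 6 of the 8 high in kFRA were not. The exceptions in kFRA were Fblim1 and Sh3bgr. Among the 6, Gm20746 and Mir692-1 both match the same ferritin pseudogene, as described below, so they may share reads. The share of coding genes among all genes high in each genotype was not counted.

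**Figure D1:**
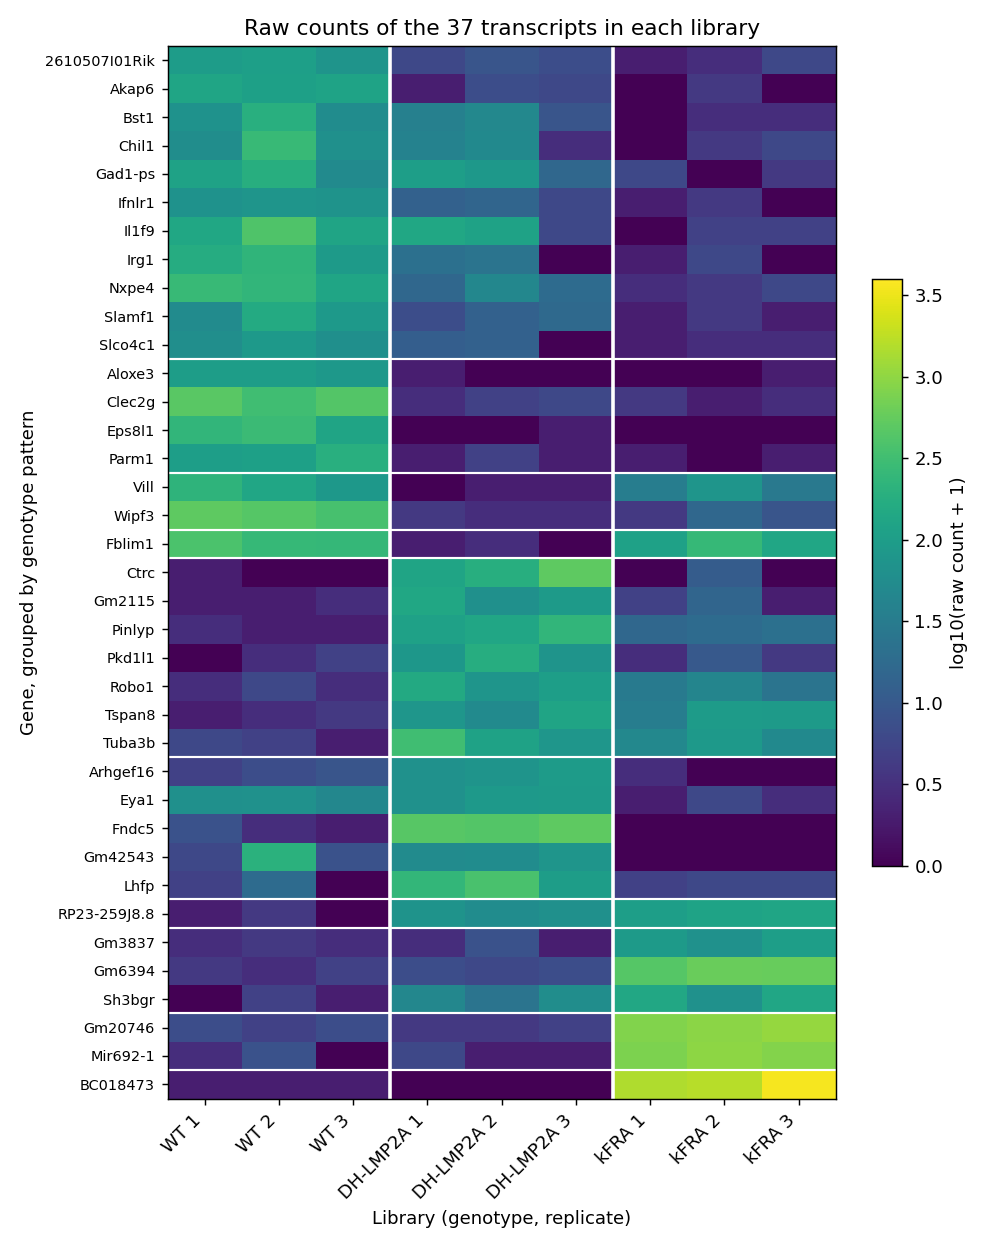
Raw counts of the 37 genes (rows, grouped by genotype pattern) in the 9 libraries (columns), coloured by log10(raw count + 1). White lines part genotypes and patterns; the top 18 rows are the genes high in WT, and the lowest rows are the genes counted mainly in kFRA, ending with BC018473 at 1461 to 3598 counts.

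Of the 8 genes high in kFRA, 4 resemble other genes in sequence. Of the 37 genes, 7 had a same-strand match to a transcript of another gene over at least 50% of their length in GENCODE M21, and these included Gm20746, Mir692-1, Gm6394 and Gm3837, all of them high in kFRA. The first pair resembles ferritin light chain, Ftl1, the iron-storing subunit. Mir692-1 (chr17:6895229-6895337, minus strand, GRCm38) is annotated as a microRNA hairpin, but its sequence is ferritin-like: 93 of its bases matched the ferritin pseudogene Ftl2-ps at 97.8% identity. Its near-twin Mir692-2 (chr4:125504749-125504857, plus strand) matched it at 96.3% identity over 109 aligned bases. The hairpins from RefSeq (GRCm38.p6) are given to show how little separates the loci, with the seed (bases 2 to 8 of the mature miR-692) in capitals; both carry the same mature sequence.
Mir692-1 hairpin: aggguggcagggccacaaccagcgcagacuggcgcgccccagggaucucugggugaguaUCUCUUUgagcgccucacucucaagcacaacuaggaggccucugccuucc
Mir692-2 hairpin: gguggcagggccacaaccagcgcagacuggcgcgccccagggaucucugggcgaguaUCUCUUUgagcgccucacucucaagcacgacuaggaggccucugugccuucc
mmu-miR-692: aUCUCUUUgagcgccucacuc

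Mir692-1 had 777, 986 and 855 counts in the kFRA libraries, 2, 7 and 0 in WT, and 5, 1 and 1 in DH-LMP2A. Gm20746 (Ftl1-ps2 in GENCODE, chr10:130592154-130592705) had 818, 942 and 1062 counts in kFRA, 6, 4 and 6 in WT, and 3, 3 and 4 in DH-LMP2A. No library of the other genotypes came near any kFRA library in either gene. Gm20746 differed from Ftl1 at 12 of 549 aligned bases, and its longest stretch identical to Ftl1 was 93 bases, longer than the 75 bases of a read. It was nearer to Ftl2-ps, with 9 mismatches in 549 aligned bases and a longest identical stretch of 127 bases. Reads from such stretches fit more than 1 gene, and how reads with several matches were treated is not given in the sources used here. The part of Ftl2-ps reads in the counts of Gm20746 and Mir692-1 was not tested. These counts are libraries of polyadenylated RNA, so those at Mir692-1 are reads over its 109 bases and not mature miR-692.

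The parent gene did not follow its copies. Ftl1 was at 2659 ± 385 CPM in WT (SD, n = 3), 2229 ± 877 CPM in DH-LMP2A and 1082 ± 51.6 CPM in kFRA, so it was lower where the copies were high (log2 fold change against WT −1.30, SE 0.29, adjusted p = 0.0166 by edgeR's quasi-likelihood test; against DH-LMP2A −1.04, adjusted p = 0.0788). Ftl2-ps, left out of the 37 by its symbol, was at 604 ± 40.4 CPM in kFRA against 0.191 ± 0.169 CPM in WT and 0.285 ± 0.12 CPM in DH-LMP2A. A further copy, Gm15590, with 97.6% identity to Gm20746, was present everywhere but higher in kFRA, at 337 ± 8.64 CPM against 125 ± 18.8 CPM in WT and 97.7 ± 35.3 CPM in DH-LMP2A (adjusted p = 0.00552 and 0.0033).

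Gm6394 (chr3:57717813-57718289, minus strand), a processed pseudogene in a single exon of 477 bases, had 442, 607 and 577 counts in kFRA, 3, 2 and 4 in WT, and 6, 5 and 6 in DH-LMP2A. Every kFRA library was far above every other library. Gm3837 (Pdcd5-ps in GENCODE, chr1:189277443-189277823), a copy of the cell death gene Pdcd5, had 91, 65 and 103 counts in kFRA against 2, 3 and 2 in WT and 2, 7 and 1 in DH-LMP2A. All 381 of its bases are identical to Pdcd5, so no letter of a read within it tells the pair apart. Pdcd5 itself lay at 16.8 ± 0.201 CPM in WT, 18.5 ± 2 CPM in DH-LMP2A and 15.4 ± 2.72 CPM in kFRA and passed the test in no comparison.

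**Figure D2:**
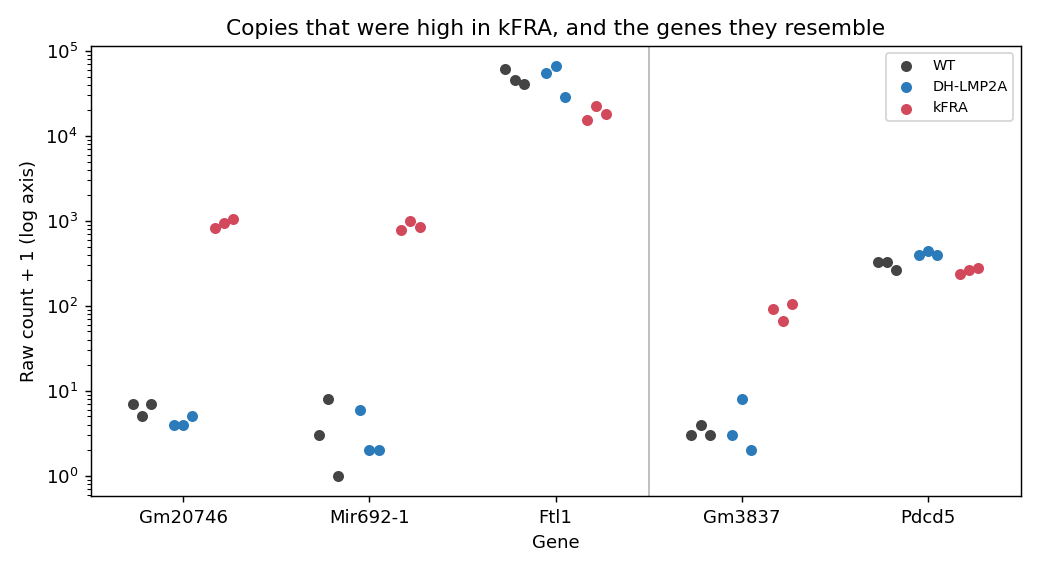
Raw count + 1 (log axis) of 3 copies that were high in kFRA and of Ftl1 and Pdcd5, which they resemble, 1 point per library. The 3 copies lie at 65 to 1062 counts in kFRA and at 0 to 7 counts elsewhere, whereas Ftl1 and Pdcd5 are counted in all 9 libraries. Ftl2-ps, the match with the highest identity to Gm20746 and to Mir692-1, is not shown, and it was also high in kFRA (604 CPM).

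BC018473 (chr11:116752167-116759373, plus strand), annotated as an antisense long noncoding RNA, was the single gene high in kFRA and absent in both other genotypes. It had 1461, 1658 and 3598 counts in kFRA, 0, 0 and 0 in DH-LMP2A, and 1, 1 and 1 in WT. Its mean in kFRA was 135 ± 79.4 CPM, at least 969-fold higher than in DH-LMP2A when the latter is set to the highest floor of 3 counts per library. Although annotated as antisense, it shared no exon base on either strand with another gene of the annotation used for counting. No transcript of another gene in GENCODE M21 matched it on the same strand over 50% of its length. The tests of genes near it are given with the neighbours.

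Sh3bgr (chr16:96200470-96228933), which encodes a small protein with an SH3-binding, glutamate-rich region, was the only protein-coding gene high in kFRA and absent in WT. It had 142, 65 and 133 counts in kFRA, 45, 23 and 58 in DH-LMP2A, and 0, 4 and 1 in WT. The DH-LMP2A libraries thus lay between the others, at 26.6% of the kFRA mean in CPM. RP23-259J8.8 (Gm43916 in GENCODE, chr6:120951901-120952867) was high in both DH-LMP2A and kFRA, with 70, 56 and 63 counts in DH-LMP2A and 103, 123 and 128 in kFRA against 1, 3 and 0 in WT. It lies opposite an exon of Mical3, an actin-oxidizing enzyme, which passed the test in no comparison and was at 20.5 ± 3.47, 14.8 ± 2.49 and 14.8 ± 6.35 CPM in WT, DH-LMP2A and kFRA. The library kit keeps strand, but the strand setting of the counting is not given in the sources used here, so the values of 7 genes with exon overlap on either strand are uncertain. The other 30 have none.

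The genes absent in both DH-LMP2A and kFRA were 4 coding genes seen in every WT mouse. Aloxe3, an epidermal lipoxygenase of the skin barrier (chr11:69125896-69149115), had 99, 101 and 82 counts in WT, 1, 0 and 0 in DH-LMP2A, and 0, 0 and 1 in kFRA. Its WT level was also the most even of these genes, 5.13 ± 0.106 CPM. Eps8l1, a relative of the actin regulator Eps8 (chr7:4460674-4480487), had 235, 284 and 124 counts in WT, 0, 0 and 1 in DH-LMP2A, and none in kFRA, which puts WT at least 55.7-fold above kFRA at the floor of 3 counts per library. Clec2g, a C-type lectin-like surface protein encoded in the natural killer gene complex (chr6:128934381-128984707), had 474, 309 and 427 counts in WT, 2, 4 and 5 in DH-LMP2A, and 3, 1 and 2 in kFRA. Parm1, a mucin-like membrane protein (chr5:91517615-91626894), had 104, 110 and 183 counts in WT, 1, 4 and 1 in DH-LMP2A, and 1, 0 and 1 in kFRA.

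Relatives of Clec2g were measured in all genotypes. Clec2i, whose transcript matches Clec2g at 90.3% identity over 2272 bases, was at 23.1 ± 9.83, 11.7 ± 4.66 and 13.4 ± 0.474 CPM in WT, DH-LMP2A and kFRA and passed the test in no comparison. The same held for Clec2d, at 89.5 ± 6.78, 73 ± 8.56 and 75.8 ± 18.7 CPM. Natural killer cell markers moved in part with Clec2g: the sum of 8 such genes was 25.4 to 41.1 CPM in WT, 15.5 to 31 CPM in DH-LMP2A and 5.95 to 7.46 CPM in kFRA, and its members did not move as 1. For DH-LMP2A against WT, Prf1 (log2 fold change −2.94, adjusted p = 0.0109 by edgeR) and Eomes (−2.22, adjusted p = 0.0425) were lower, like Clec2g, whereas Ncr1 (3.40, adjusted p = 0.0443) and Klrd1 (2.47, adjusted p = 0.0355) were higher. The receptor gene Ncr1 had 5, 2 and 1 counts in WT and 17, 11 and 77 in DH-LMP2A. The part of these cells in the Clec2g result was not tested.

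Because Clec2g, Eps8l1, Parm1 and Aloxe3 were high and absent together, their RefSeq promoters were read for short motifs, except that of Aloxe3, which was not used here. The promoters of Clec2g and Eps8l1, which hold the core GAAAG, are shown as examples, and that of Parm1 holds none. The 250 bases before the RefSeq start (GRCm38.p6) are given 5′ to 3′ in the direction of the gene, chr6:128934131-128934380 for Clec2g and chr7:4460447-4460696 for Eps8l1, with GAAAG or its reverse complement CTTTC, the core bound by Blimp-1, in capitals.
Clec2g: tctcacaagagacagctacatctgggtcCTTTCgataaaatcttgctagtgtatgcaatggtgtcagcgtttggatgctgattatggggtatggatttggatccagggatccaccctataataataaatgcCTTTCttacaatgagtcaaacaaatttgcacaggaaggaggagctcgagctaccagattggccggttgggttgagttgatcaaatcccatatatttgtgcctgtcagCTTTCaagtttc
Eps8l1: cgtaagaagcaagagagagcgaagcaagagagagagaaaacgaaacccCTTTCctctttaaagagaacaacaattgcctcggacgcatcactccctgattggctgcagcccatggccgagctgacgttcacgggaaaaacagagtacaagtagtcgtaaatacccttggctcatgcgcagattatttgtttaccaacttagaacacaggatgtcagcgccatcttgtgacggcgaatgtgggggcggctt

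The core occurred 3 times before Clec2g and once before Eps8l1, and at least once in 12 of the 23 listed genes with a promoter in the RefSeq table. Of all 32851 promoters of the same length, 51.5% held it, so the listed genes did not stand out as counted. On both strands, the octamer ATTTGCAT bound by Oct factors was found only before Tspan8 (1.6% of all promoters held it), TATAAA only before Nxpe4 (12.4%), the ETS core GGAAGT before Arhgef16 and Il1f9 (19.7%), and the E-box CACGTG before Arhgef16 and Nxpe4 (6.02%). The number of CG pairs ranged from 0 before Akap6 to 38 before Fndc5, with a median of 11 in the listed promoters and 6 in all.

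A further 3 genes were high in WT and absent in DH-LMP2A but not in kFRA. Wipf3, of the family that binds the actin nucleation factor WASP (chr6:54429603-54503768), had 512, 441 and 352 counts in WT, 3, 2 and 2 in DH-LMP2A, and 3, 15 and 8 in kFRA, where 2 libraries exceeded the limit for absence. Its exons overlap 9130019P16Rik and Scrn1 on the opposite strand. Vill, a villin-like actin-binding protein (chr9:119052778-119071525), had 222, 134 and 83 counts in WT, 0, 1 and 1 in DH-LMP2A, and 33, 74 and 28 in kFRA, so kFRA lay at 32.2% of the WT mean. Fblim1, a filamin-binding adhesion protein (chr4:141576062-141606096), was high in both WT (374, 256 and 247 counts) and kFRA (115, 258 and 132) and had 1, 2 and 0 in DH-LMP2A.

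In the 11 genes high in WT and absent in kFRA, DH-LMP2A was by the rule neither high nor absent. Its libraries lay clear between the others, in CPM, in 4 genes (Slamf1, Ifnlr1, Bst1 and Nxpe4), and overlapped those of kFRA in 6. All DH-LMP2A libraries were below all WT libraries in 10 of the 11 (Gad1-ps was the exception), and all were above all kFRA libraries in 5. Of these genes, Chil1, Irg1 and Il1f9 are known from myeloid and epithelial cells. Chil1, a chitinase-like protein, had 58, 263 and 64 counts in WT, 39, 50 and 2 in DH-LMP2A, and 0, 3 and 5 in kFRA. Irg1 (Acod1 in GENCODE), which makes itaconate in activated macrophages, had 167, 223 and 91 counts in WT, 20, 23 and 0 in DH-LMP2A, and 1, 5 and 0 in kFRA. Il1f9, the cytokine IL-36 gamma, had 138, 406 and 124 counts in WT, 137, 116 and 5 in DH-LMP2A, and 0, 4 and 4 in kFRA.

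These 3 genes share an order of libraries, highest in WT replicate 2 and lowest within DH-LMP2A in replicate 3. Over the 11 genes, WT replicate 2 was the highest WT library in 8 and DH-LMP2A replicate 3 the lowest DH-LMP2A library in 7, in CPM. The neutrophil gene S100a8 ran alongside, with 1471, 5145 and 1474 counts in WT, 1425, 1059 and 109 in DH-LMP2A, and 29, 23 and 59 in kFRA; it was singled out after its values were seen. Of the other myeloid genes examined, S100a9 (2686, 10542 and 3277 counts in WT), Itgam (635, 1283 and 553) and Cd14 (1414, 1476 and 884) were also highest in WT replicate 2. Others were highest in WT replicate 1, among them Lyz2 (18988, 6411 and 7648 counts in WT), Csf1r (29238, 22415 and 11387) and Adgre1 (7177, 6242 and 3410). The myeloid list as a whole (8 of 8 genes counted in every library) summed, in replicate order, to 3121, 2730 and 1824 CPM in WT, 1159, 1433 and 456 CPM in DH-LMP2A, and 759, 1362 and 762 CPM in kFRA. Of its 8 genes, 4 were lower in kFRA than in WT past the threshold, where 11.1% of all genes tested were lower. For DH-LMP2A against WT Lyz2 was lower and Mpo higher, where 7.3% of all genes were lower and 5.07% higher. The part of myeloid cells in these absences was not tested.

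**Figure D3:**
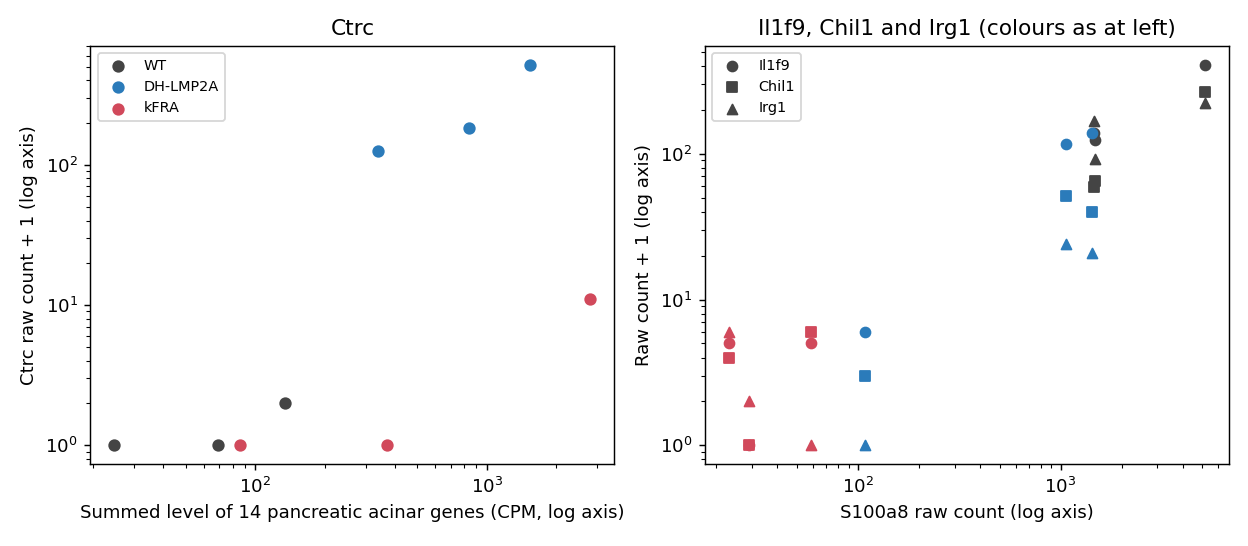
Left, raw count + 1 of Ctrc against the summed CPM of 14 pancreatic acinar genes; right, raw count + 1 of Il1f9, Chil1 and Irg1 against the raw count of S100a8, 1 point per library, all axes log. Ctrc is above 100 counts only in the DH-LMP2A libraries although kFRA replicate 2 has the highest acinar sum (2804 CPM), and the 3 genes on the right are at 5 counts or fewer in the 4 libraries with fewest S100a8 counts.

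Other genes of this pattern encode receptors and surface enzymes. Slamf1, the SLAM (CD150) receptor of lymphocytes and macrophages (chr1:171767127-171801184), had 53, 159 and 85 counts in WT, 6, 12 and 16 in DH-LMP2A, and 1, 3 and 1 in kFRA. Bst1, the NAD-consuming surface enzyme CD157 (chr5:43818885-43843986), had 67, 186 and 55 counts in WT, 36, 47 and 8 in DH-LMP2A, and 0, 2 and 2 in kFRA. Ifnlr1, the specific chain of the lambda interferon receptor, had 68, 75 and 70 counts in WT, 12, 14 and 5 in DH-LMP2A, and 1, 3 and 0 in kFRA. None of the 3 had a DH-LMP2A library as high as any WT library or as low as any kFRA library. Some B cell markers were lower in kFRA as well: 5 of 8 passed the test against WT, where 11.1% of all genes tested were lower. Among them were Pax5 (log2 fold change −3.01, adjusted p = 0.0104 by edgeR), Cd22 (−3.60, adjusted p = 0.00434) and Fcer2a (−3.32, adjusted p = 0.0242). The list summed to 627 to 891 CPM in WT, 700 to 1110 CPM in DH-LMP2A and 489 to 624 CPM in kFRA, and the part of B cells in this pattern was not tested.

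The other genes of the pattern have varied roles. Slco4c1, an organic anion transporter, had 60, 86 and 62 counts in WT, 11, 12 and 0 in DH-LMP2A and 1, 2 and 2 in kFRA. Akap6, an anchor for protein kinase A known from muscle, had 130, 111 and 121 counts in WT, 1, 6 and 5 in DH-LMP2A and 0, 3 and 0 in kFRA, and so missed absence in DH-LMP2A by a single count in 1 library. Nxpe4, of the neurexophilin-like family, had 266, 231 and 128 counts in WT, 15, 45 and 17 in DH-LMP2A and 2, 3 and 5 in kFRA. The noncoding transcript 2610507I01Rik was at 73 to 108 counts in WT, 5 to 8 in DH-LMP2A and 1 to 5 in kFRA. Gad1-ps, a processed pseudogene of the glutamate decarboxylase gene Gad1 with 94.2% identity, was at 52 to 179 counts in WT, 15 to 102 in DH-LMP2A and 0 to 5 in kFRA. Its DH-LMP2A libraries overlapped those of WT, and Gad1 itself had at most 16 counts in any library.

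Of the 8 genes absent in WT and high in DH-LMP2A, RP23-259J8.8 was high in kFRA too, and the other 7 were protein coding. Robo1, a receptor for the guidance protein Slit (chr16:72663149-73046095), had 153, 74 and 102 counts in DH-LMP2A, 29, 43 and 23 in kFRA, and 2, 5 and 2 in WT. Tspan8, a tetraspanin of the cell surface (chr10:115817284-115849893), had 78, 52 and 127 counts in DH-LMP2A, 33, 95 and 90 in kFRA, and 1, 2 and 3 in WT, so DH-LMP2A and kFRA overlapped. Tuba3b, an alpha tubulin, had 308, 118 and 77 counts in DH-LMP2A, 47, 89 and 50 in kFRA, and 5, 4 and 1 in WT. Its closest relative Tuba3a, with 96.5% identity, had at most 9 counts in any library.

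Pinlyp, a secreted protein with a LY6/PLAUR fold (chr7:24541658-24546118), was stepped, with 113, 134 and 231 counts in DH-LMP2A, 15, 17 and 20 in kFRA, and 2, 1 and 1 in WT. Pkd1l1, a polycystin-1-like membrane protein, had 80, 172 and 73 counts in DH-LMP2A against 2, 9 and 3 in kFRA and 0, 2 and 4 in WT. Gm2115, a predicted gene, had 138, 64 and 90 counts in DH-LMP2A against 4, 14 and 1 in kFRA and 1, 1 and 2 in WT. Over the 7 genes, all kFRA libraries were above all WT libraries in 4 (Robo1, Tspan8, Tuba3b and Pinlyp) and below all DH-LMP2A libraries in 5, in CPM. Erythroid genes were also low in WT: 8 such genes summed to 39.3 to 341 CPM in WT, 1167 to 2807 CPM in kFRA and 2566 to 13641 CPM in DH-LMP2A. Against WT, 5 of the 8 passed the test upward in DH-LMP2A (5.07% of all genes tested) and 5 in kFRA (6.68%). The erythroid sum was highest in DH-LMP2A replicate 3, as were Pinlyp, Tspan8 and Ctrc, the last of which is described below. Robo1, Tuba3b and Gm2115 were instead highest in DH-LMP2A replicate 1 and Pkd1l1 in replicate 2. The part of these cells in the results was not tested.

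Ctrc, the digestive protease chymotrypsin C of the pancreas (chr4:141814962-141846359), completes this pattern with 124, 181 and 514 counts in DH-LMP2A, 0, 10 and 0 in kFRA, and 1, 0 and 0 in WT. Other acinar genes, which encode digestive enzymes, were counted in these libraries too. A list of 14 such genes, chosen after the values were seen, summed, in replicate order, to 135, 69.3 and 24.6 CPM in WT, 339, 837 and 1541 CPM in DH-LMP2A, and 86, 2804 and 369 CPM in kFRA. The order of Ctrc did not follow the sum in kFRA replicate 2: there Ctrc had 10 counts beside 58940 counts of the list, against 124 beside 8010, 181 beside 18044 and 514 beside 33673 in the DH-LMP2A libraries. The annotated exons of Ctrc overlap those of Cela2a on the same strand and of Casp9 on the opposite strand, and Cela2a, another acinar protease, had 528, 1311 and 2641 counts in DH-LMP2A and 73, 4651 and 354 in kFRA. The part of the overlap and of acinar RNA in the Ctrc result was not tested.

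Genes high in DH-LMP2A and absent in kFRA were 5. Fndc5, the membrane precursor of irisin (chr4:129136999-129144593), had 465, 438 and 514 counts in DH-LMP2A, 0, 0 and 0 in kFRA, and 7, 2 and 1 in WT. It was the most even gene of the group, at 21.2 ± 2.06 CPM in DH-LMP2A, at least 103-fold higher than in kFRA at the floor of 3 counts per library. Lhfp, a membrane protein of a tetraspan family (chr3:53041528-53261679), had 240, 366 and 99 counts in DH-LMP2A, 4, 5 and 5 in kFRA, and 4, 17 and 0 in WT. Arhgef16, a guanine nucleotide exchange factor (chr4:154278486-154301676), had 65, 72 and 95 counts in DH-LMP2A, 2, 0 and 0 in kFRA, and 4, 6 and 8 in WT. Eya1, a transcription coactivator and phosphatase of organ development (chr1:14168954-14310235), differed in that WT was high too, with 66, 86 and 92 counts in DH-LMP2A, 1, 5 and 2 in kFRA, and 63, 65 and 46 in WT. Only the single WT library under 50 counts kept WT from counting as high.

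Gm42543 (chr6:68880178-68880674, minus strand) is a kappa light chain variable segment by annotation that escaped the exclusion by symbol. It had 53, 55 and 74 counts in DH-LMP2A, none in kFRA, and 5, 197 and 7 in WT, at least 13.3-fold higher in DH-LMP2A than in kFRA at the floor. A single WT mouse carried nearly all WT counts. Variable segments are read mainly in the cells that rearranged them, unlike the other listed genes, and rearrangement of Gm42543 was not examined.

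Across the whole list, 30 genes had 1 genotype that was neither high nor absent by the rule. In CPM, its libraries overlapped those of the high genotype in 5 genes, those of the absent genotype in 13, and neither in 12. Near the limits, the members closest to leaving were Gad1-ps (highest count 5 in kFRA, lowest 52 in WT), Chil1 (5 and 58) and Eya1 (5 in kFRA, 66 in DH-LMP2A). Just outside were Tnfsf14 (highest count 4 in kFRA, lowest 46 in WT), Tdpx-ps1 (2 in WT, 45 in DH-LMP2A) and Atp10a (5 in kFRA, 44 in WT).

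By position, the genes were spread over 14 chromosomes rather than stacked in 1 region. Chromosomes 1, 4 and 6 held 5 genes each, 13.5% of the list apiece, against 6.22%, 6.04% and 5.93% of the 14199 genes tested. Chromosome 11 held 4, chromosomes 7 and 10 held 3 each, and chromosomes 8, 13, 15, 18, 19, X and Y held none. A single pair lay within 1 Mb of each other, Fblim1 and Ctrc on chromosome 4 with a gap of 208.9 kb, and their patterns were opposite, since Fblim1 was absent and Ctrc high in DH-LMP2A. The next closest pair, Lhfp and Gm6394 on chromosome 3, was 4456.1 kb apart. Within 20 Mb of the heavy chain locus on chromosome 12 there was no listed gene (1.87% of genes tested lay there), and within 20 Mb of the kappa locus on chromosome 6 there were Wipf3 and Gm42543 (5.41% of the list, 2.51% of genes tested).

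Genes next to the listed ones were not chosen by the rule and could be tested. Within 200 kb, taking for each comparison the listed genes that separate its genotypes, 7 of 39 neighbours (17.9%) passed the threshold of adjusted p under 0.05 for kFRA against DH-LMP2A, where 5.02% of all genes passed (1.73% higher and 3.3% lower in kFRA). For kFRA against WT 25 of 99 neighbours passed (25.3%, where 17.8% of all genes passed, 6.68% higher and 11.1% lower in kFRA), and for DH-LMP2A against WT 18 of 73 (24.7%, where 12.4% of all genes passed, 5.07% higher and 7.3% lower in DH-LMP2A). The comparisons share libraries and neighbours share loci, so these shares are counts and not independent trials. Of the neighbours that passed, 5 of 7, 17 of 25 and 7 of 18 moved the same way as the listed gene. For DH-LMP2A against WT the split depended on the window, with 5 of 10 moving the same way within 100 kb and 16 of 31 within 500 kb. Without kFRA replicate 2 the shares were 33.3% and 42.7% for the comparisons with kFRA, against 22.7% and 38.8% of all genes; leaving out other libraries brought them as low as 5.0% and 10.8%, against 2.41% and 8.8% as the lowest over all genes. For DH-LMP2A against WT they ranged from 7.79% to 16.9%, against 6.42% to 9.7%.

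The neighbours of BC018473 held 3 of these 7 calls in the contrast of kFRA with DH-LMP2A. Mxra7, a matrix-remodelling-associated gene 43.7 kb away, had 44, 63 and 54 counts in kFRA, 18, 15 and 12 in DH-LMP2A, and 2, 2 and 2 in WT. Its kFRA level exceeded that of DH-LMP2A (log2 fold change 2.21, SE 0.26, adjusted p = 0.000811 by edgeR) and that of WT (4.76, SE 0.33, adjusted p = 1.23e-05). The splicing factor gene Srsf2, 90.5 kb away, was at 212 ± 12.4 CPM in kFRA, 134 ± 5.48 CPM in WT and 142 ± 4.91 CPM in DH-LMP2A (adjusted p = 0.00481 against WT and 0.0193 against DH-LMP2A). The uncharacterized gene 1810032O08Rik, 76.4 kb away, exceeded its DH-LMP2A level in kFRA (log2 fold change 1.29, adjusted p = 0.0154). Mettl23, 83.9 kb away, went the other way against WT, with kFRA at 10.3 ± 1.43 CPM and WT at 16.8 ± 2.33 CPM (adjusted p = 0.0287); it was picked out after its value was seen.

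Around other listed genes the picture was mixed. Rnaset2b, an RNase T2 gene 83.5 kb from Mir692-1, was lower in kFRA, opposite to Mir692-1 (kFRA against DH-LMP2A, log2 fold change −1.13, SE 0.13, adjusted p = 0.000811). Tmem82, 7.3 kb from Fblim1, followed it, with 8.69 ± 2.09 CPM in kFRA, 8.08 ± 1.5 CPM in WT and 3.64 ± 0.397 CPM in DH-LMP2A (adjusted p = 0.0153 for kFRA against DH-LMP2A). Plcd1, a phospholipase C whose span ends 2 bases from that of Vill, followed Vill, with 75, 56 and 79 counts in WT, 9, 5 and 3 in DH-LMP2A, and 28, 12 and 22 in kFRA (DH-LMP2A against WT, log2 fold change −3.91, SE 0.52, adjusted p = 0.00163). Bid, a pro-death member of the BCL2 family 35.0 kb from RP23-259J8.8, was above its WT level in both other genotypes, with DH-LMP2A at 43.5 ± 4.93 CPM, kFRA at 49.4 ± 9.63 CPM and WT at 21.7 ± 1.25 CPM (adjusted p = 0.00407 and 0.00136).

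Near Ifnlr1, Cnr2, the cannabinoid receptor of immune cells, had 278, 465 and 177 counts in WT, 107, 128 and 211 in DH-LMP2A, and 24, 54 and 31 in kFRA (kFRA against WT, log2 fold change −2.98, SE 0.38, adjusted p = 0.000897). On the other side of Ifnlr1, the epithelial transcription factor gene Grhl3 had 15, 22 and 31 counts in WT and none in kFRA (adjusted p = 0.00331). Klrb1b, a natural killer receptor gene 108 kb from Clec2g, had 12, 32 and 20 counts in WT and 0, 0 and 2 in DH-LMP2A (adjusted p = 0.0108). These followed the listed gene beside them. Plaur, the urokinase receptor near Pinlyp, went against it, with DH-LMP2A at 2.17 ± 1.13 CPM and WT at 10.6 ± 2.35 CPM (adjusted p = 0.00693), as did Gm11992 near Pkd1l1, at 0.0141 ± 0.0244 and 1.29 ± 0.162 CPM (adjusted p = 0.00107).

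Relatives of Slamf1 and Bst1 sit beside them in the genome, and they are named here after their values were seen. In kFRA against WT, Cd84 was at 38.2 ± 7.35 against 66.2 ± 10.1 CPM (adjusted p = 0.0165), Cd48 at 62.2 ± 6.9 against 89.9 ± 3.22 CPM (adjusted p = 0.0251) and Cd244 at 13.9 ± 5.76 against 45.9 ± 16.4 CPM (adjusted p = 0.0372), all lower like Slamf1. Ly9, at 79.2 ± 8.81 against 108 ± 17.5 CPM (adjusted p = 0.0755), and Slamf6, at 36.9 ± 10.5 against 45.9 ± 5.51 CPM (adjusted p = 0.281), did not pass. Slamf7, a receptor abundant on plasma cells, was higher, at 322 ± 31.7 against 206 ± 32.7 CPM (adjusted p = 0.0365). Cd38, the relative of Bst1 and 24.6 kb from it, was lower in kFRA, at 35.9 ± 5.35 against 73.4 ± 17.7 CPM (adjusted p = 0.00748). These relatives remained well counted in the genotype where Slamf1 and Bst1 were absent.

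**Figure D4:**
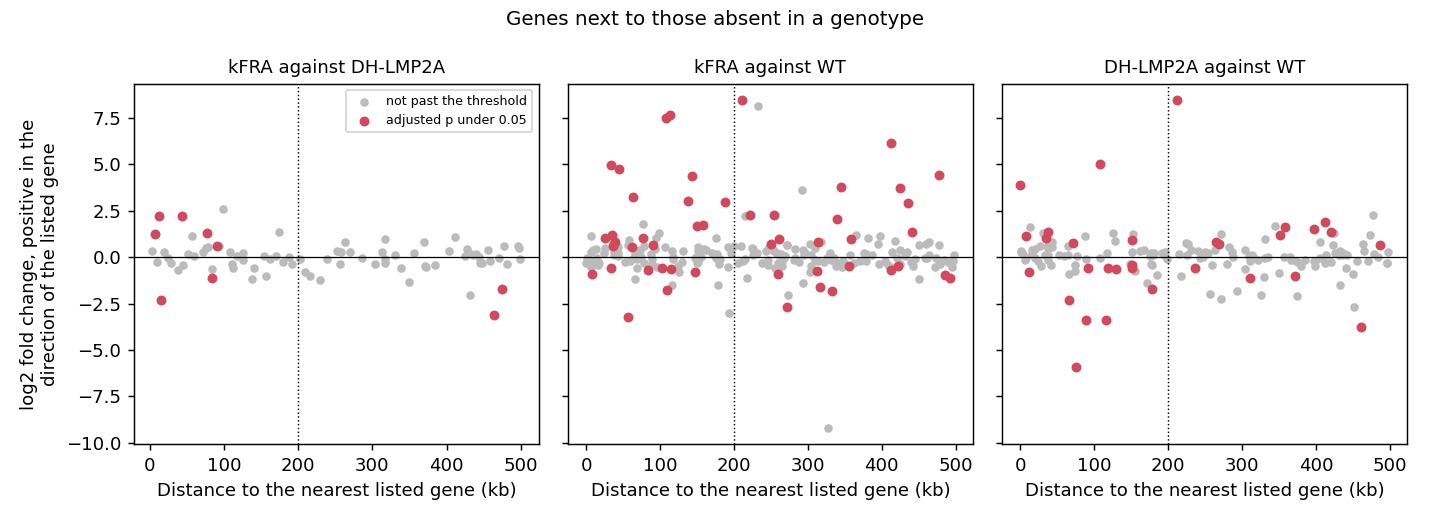
Log2 fold change of each gene tested near a listed gene (y axis, positive when it moved the same way as the listed gene) against its distance in kb (x axis), for the 3 comparisons; red points passed adjusted p under 0.05 and the dotted line marks 200 kb. Red points lie on both sides of 0 in every panel, with 5 above and 2 below within 200 kb in the left panel, 17 and 8 in the middle and 7 and 11 in the right.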

How the data were processed

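Polyadenylated RNA was prepared with a stranded kit and read as paired ends of 75 bases, per the labels' protocols. The authors deposited raw counts per gene, not normalized, in the layout of featureCounts, per the file headers. The submitters' processing notes name STAR 2.4.0a, featureCounts, Subread 1.5.0-p3 and DESeq2, and the builds mm10 and GRCm38. The strand setting, the rule for reads with several matches and the annotation release are not given in the sources used here. Genes were matched to GENCODE M21 by symbol (33 of the 37) or position (4).

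All 9 count columns were used. Members were found on raw counts, all 37 were described, and all 37 passed edgeR's filterByExpr, which left 14199 genes. The members and the gene lists were chosen with earlier results of these data known. For the neighbours, edgeR 4.0.16 under R 4.3.3 was fitted to all 9 libraries with a coefficient per genotype, with TMM scaling (trimmed mean of M-values), and contrasts were tested by the 2-sided quasi-likelihood test with Benjamini-Hochberg adjustment over all genes tested and a threshold of 0.05. Standard errors (SE) of log2 fold changes are the absolute change over the root of the F statistic. CPM values use the same scaling factors. The fit was first tested on simulated data for kFRA against WT, where it recovered 32% of 2-fold changes and 99% of 4-fold changes. A gene that did not pass can therefore still differ between genotypes. Named were all coding members, members within 1 Mb of each other, the 10 highest others (there were 9), and the 5 neighbours with the smallest p-value per comparison; further neighbours are said to be chosen later.

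Floors of 3 counts per library stand for 0.127 to 0.205 CPM and cover counting error only. No replicates agreed within sampling noise (chi-square per degree of freedom 17.3 to 164). Sequence matches were found with BLAST+ 2.17.0, and tables were joined with Python 3.11.15 and numpy 2.4.6. The alternatives were other limits of the rule, TMM-scaled counts, no exon overlap, DESeq2 1.42.0 (size factors or Wald test), no filter on low counts, a replicate block, windows of 100 and 500 kb, and leaving out each library. A comparison of Gm6394 with another gene is not reported here.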

Additional observations from a re-analysis of the deposited data

How the results depend on the processing

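The count of 37 genes followed the limits of the rule: it was 4 when absence meant 0 counts, 69 with a limit of 10 counts, 16 when high meant 100 counts and 61 with 30 counts. On TMM-scaled counts 32 genes met it, of which 30 were among the 37, and without exon overlap 30. Leaving out a library gave 39 to 49 genes and kept all 37, as it can only loosen the rule. Genes called numbered 352 to 3299 for kFRA against DH-LMP2A, 1271 to 5632 for kFRA against WT and 932 to 1408 for DH-LMP2A against WT when a library was left out, with neighbours called at 2 to 13, 11 to 44 and 6 to 13. The highest values with kFRA came without kFRA replicate 2. For kFRA against DH-LMP2A, leaving out DH-LMP2A replicate 1 or 2 or kFRA replicate 1 left 2 neighbours called and leaving out kFRA replicate 3 left 4. For kFRA against WT, counts of neighbours were 11 without WT replicate 2, 13 without kFRA replicate 1 and 14 without kFRA replicate 3. For DH-LMP2A against WT they were 8 without WT replicate 1 and 6 without WT replicate 2 or DH-LMP2A replicate 1. The cause was not tested, though fewer samples were fitted. The DESeq2 Wald test called 1405 genes for kFRA against DH-LMP2A. A window of 500 kb gave 49 and 31 neighbours called for kFRA and DH-LMP2A against WT, and 100 kb gave 14 and 10, by including more or fewer genes. Of 81 alternative values, 49 stayed within 1.5 times and 32 moved.

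The replicate numbers name different mice. Of 9 same-numbered pairs, 4 had correlated deviations over 0.1 (r from −0.211 to 0.196), so the numbers were not taken as a pairing. With the replicate block, 685, 2930 and 2067 genes and 6, 30 and 20 neighbours were called in the 3 comparisons, none moved by over 1.5 times. Depth limits the statements on absence: 3 counts in the shallowest library stand for 0.205 CPM.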

Other observations

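A list of 32 genes known to differ between inbred mouse strains in presence, copy number or expression was counted beside the 37; 30 were in the table and 19 were tested, and none met the rule. For kFRA against DH-LMP2A 4 of the 19 were higher and 1 lower past the threshold (5.02% of all genes passed). For kFRA against WT 2 were higher and 6 lower (17.8% of all genes), and for DH-LMP2A against WT 1 was higher and 7 lower (12.4%). Apobec3, which restricts retroviruses, was lower in both other genotypes than in WT, at 157 CPM in WT, 29.4 CPM in DH-LMP2A and 33.8 CPM in kFRA (adjusted p = 1.97e-05 and 2e-05 by edgeR). Glo1, a detoxifying enzyme subject to copy number differences between strains, was at 14.3, 14.1 and 35.9 CPM in WT, DH-LMP2A and kFRA (adjusted p = 0.000737 for kFRA against WT and 0.00111 against DH-LMP2A).

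The interferon-inducible gene Ifi202b was split within genotypes. It had 0, 169 and 203 counts in WT replicates 1 to 3, 166, 168 and 0 in DH-LMP2A replicates 1 to 3, and 0 in all kFRA libraries, so presence and absence lay between mice of the same genotype. By the same limits, 5 counts or fewer in a library and 50 or more in another of the same genotype, 35 genes were split within WT, 27 within DH-LMP2A and 31 within kFRA, or 0.318%, 0.244% and 0.288% of the genes that reached 50 counts in a library of that genotype. In each genotype 4 of these genes lay on the sex chromosomes. Of the 37 genes, Gm42543 was split within WT, and Chil1 and Il1f9 within DH-LMP2A.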
